A study of Homo sapiens with 6 samples.

Results

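Forkhead box genes encode transcription factors that share the forkhead, or winged helix, DNA-binding domain. Members were taken as the genes on chromosomes 1 to 22 whose symbol is FOX followed by a letter from A to S and a number, and 41 of the 36532 genes in the transcript files met this rule. Levels are in TPM, which counts reads per transcript length and scales them to the same total in every library, summed over the Ensembl transcripts of a gene. Values came from 6 RNA sequencing libraries of 4 cell lines of atypical teratoid rhabdoid tumor (AT/RT), an embryonal brain tumor of young children defined by loss of SMARCB1, a subunit of the SWI/SNF chromatin remodeling complex. There was 1 library of CHLA 02 and 1 of CHLA 05, whereas CHLA 04 and CHLA 06 were each sequenced as 2 technical replicates. All 4 lines were kept in DMEM:F12 medium with EGF, basic FGF and B-27 supplement, the labels give no further treatment, and there was no control line. Each line was 1 biological sample, so the spread between cultures was not measured, no test between lines was made, and the errors given are between technical replicates or from read counting.

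Forkhead proteins bind DNA motifs around the letters TGTTTAC, and subfamilies differ in how they are switched on. FOXO proteins are phosphorylated by AKT and leave the nucleus when insulin and growth factor signaling is high, FOXM1 drives genes of the late cell cycle, and FOXP proteins act as dimers that mostly repress. Many other members mark a place in the embryo: FOXA2 the floor plate, FOXD3 the neural crest, FOXC1 and FOXF2 the mesenchyme and meninges around the brain, and FOXJ1 cells with motile cilia.

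Depth on transcripts was 10265899 to 20520229 recovered reads per library. Between technical replicates the median difference of members with 5 TPM or more in both was 0.32 in CHLA 04 and 0.25 in CHLA 06 on the log2 TPM scale, over 14 and 12 members, and the 95% Wilson intervals of 7 and 8 members did not overlap between them. The Wilson intervals cover counting error only, so these members differed between technical replicates by more than counting error. VIM, the intermediate filament vimentin, was at 4629 to 19460 TPM, while markers of immune and endothelial cells (PTPRC, AIF1, PECAM1 and CDH5) were at or under 0.224 TPM in every library. The neural markers GFAP, SOX11 and OLIG2 were at or under 0.0419 TPM in CHLA 06 and higher in the other lines, whereas KRT8, a keratin of simple epithelia, was at 55.1 to 81.6 TPM in CHLA 02 and CHLA 06 and at or under 0.188 TPM in CHLA 04 and CHLA 05. NES, the neural progenitor filament nestin, was not called, at 25.6 TPM in the CHLA 02 library, 27.6 in that of CHLA 05, 10.8 and 6.94 in the CHLA 04 pair, and 5.21 and 10.5 in the CHLA 06 pair. CHLA 02 lay between the means of CHLA 04 and CHLA 06 for 92.6% of the 2304 genes called between those lines, and CHLA 05 for 65.5%. The median position of CHLA 02 was 0.37 on a scale with CHLA 06 at 0 and CHLA 04 at 1, and all 7 forkhead genes called between CHLA 04 and CHLA 06 had CHLA 02 between them. The cause of this order was not tested. In bulk RNA, fewer cells of a type and less RNA per cell cannot be told apart.

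Several forkhead genes lie side by side in the genome. On chromosome 6 of GRCh38, FOXQ1 (1312473 to 1314187), FOXF2 (1389834 to 1395597) and FOXC1 (1609972 to 1613897) followed each other on the plus strand, with 75.6 and 214 kb between them. Their promoters are shown because all 3 neighbors had their highest mean in CHLA 06 and their lowest in CHLA 04. Each runs from 250 bases before to 50 bases after the RefSeq start of transcription (GRCh38.p14, plus strand, 5′ to 3′), at chr6:1311848-1312147, chr6:1389326-1389625 and chr6:1609665-1609964. These RefSeq starts lie upstream of the gene starts in the files. Capitals mark CCAAT boxes, read as CCAAT or, on the other strand, ATTGG.
FOXQ1: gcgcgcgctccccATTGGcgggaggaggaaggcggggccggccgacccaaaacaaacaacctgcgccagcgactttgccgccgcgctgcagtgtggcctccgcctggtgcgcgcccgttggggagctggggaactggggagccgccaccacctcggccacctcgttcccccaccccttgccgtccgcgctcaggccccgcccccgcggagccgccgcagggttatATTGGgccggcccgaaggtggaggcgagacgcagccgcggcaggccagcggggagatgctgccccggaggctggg
FOXF2: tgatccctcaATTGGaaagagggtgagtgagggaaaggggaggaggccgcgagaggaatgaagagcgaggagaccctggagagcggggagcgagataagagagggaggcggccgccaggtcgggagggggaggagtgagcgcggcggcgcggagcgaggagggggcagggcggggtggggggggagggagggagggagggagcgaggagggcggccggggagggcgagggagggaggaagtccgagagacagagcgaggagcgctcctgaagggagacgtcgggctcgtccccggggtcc
FOXC1: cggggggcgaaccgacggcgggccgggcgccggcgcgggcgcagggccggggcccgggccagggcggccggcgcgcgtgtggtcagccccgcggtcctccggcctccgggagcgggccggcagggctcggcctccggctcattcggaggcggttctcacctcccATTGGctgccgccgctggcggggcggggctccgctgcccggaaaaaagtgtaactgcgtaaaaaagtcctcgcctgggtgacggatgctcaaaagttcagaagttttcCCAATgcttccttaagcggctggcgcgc
Counted from the start of transcription at 0, the first letters of the boxes stood at -237 and -25 in FOXQ1, at -240 in FOXF2, and at -86 and 22 in FOXC1. CCAAT on either strand was present in 34.6% of all 35116 RefSeq promoters of this length, and in 9 of the 41 promoters listed for 30 members. The 3 promoters held 35, 26 and 40 CG dinucleotides, beside a median of 14 over all promoters and 29 over the members' promoters. The forkhead letters TGTTTAC, searched on both strands, were in none of the 3, in 3.42% of all promoters, and among the members in that of FOXP1.

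Of the 41 members, 28 reached a mean of 1 TPM in at least 1 cell line, beside 43.9% of all genes, and 14 reached it in all 4 lines, beside 33.4% of all genes. CHLA 06 had the fewest members at 1 TPM or more, 18, while CHLA 02 had 22, CHLA 04 had 23 and CHLA 05 had 24. A member was called between a pair of lines when log2(TPM + 1) of the means differed by at least 2, which is 4-fold, and the Wilson intervals of all libraries of one line lay above those of the other. By this rule 10 members were called in at least 1 of the 6 pairs, among them FOXB1, FOXF2, FOXL2, FOXN3, FOXN4, FOXO1, FOXP1, FOXP2 and FOXQ1. These are 10 of the 28 detected members, beside 20.8% of all detected genes and 9.14% of all genes. The other 18 detected members were not called.

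**Figure D1:**
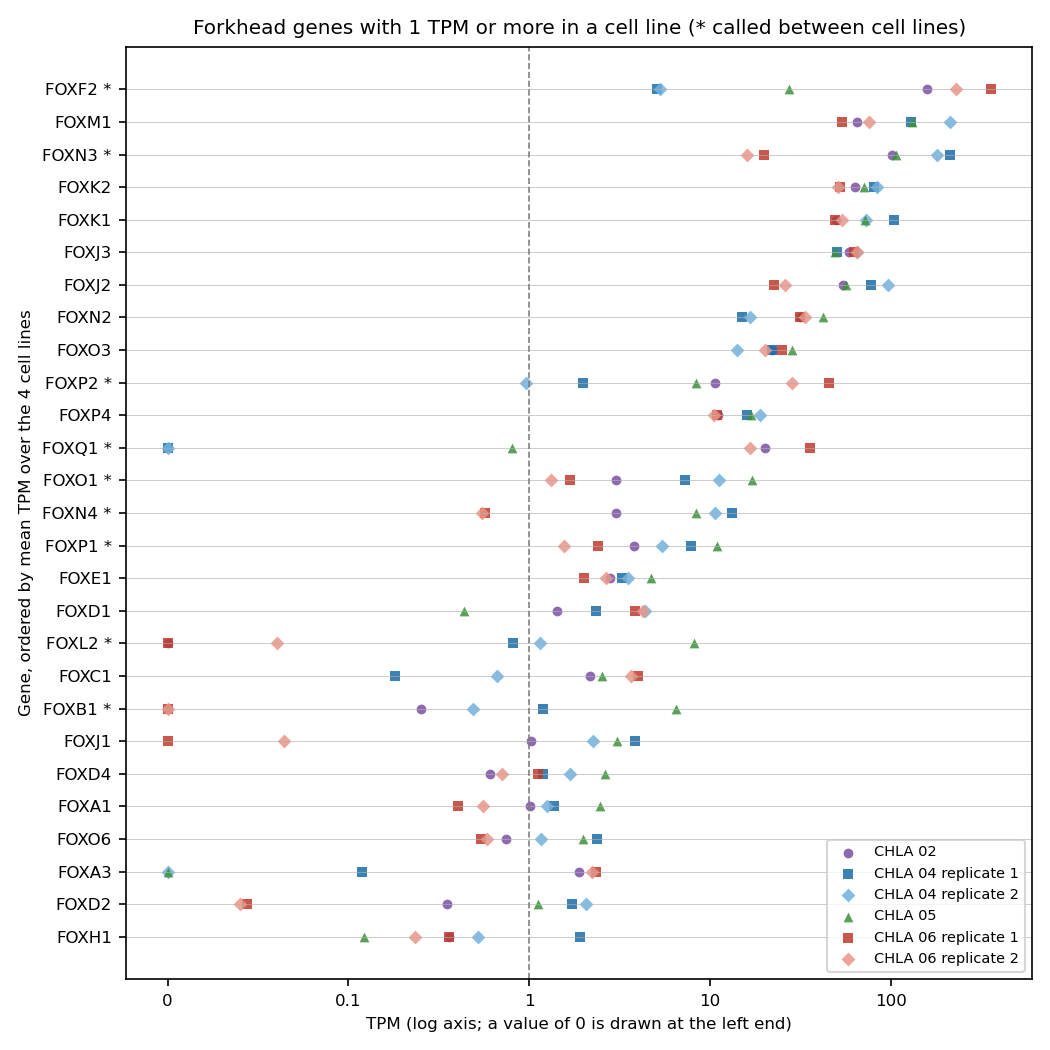
TPM of forkhead genes with a mean of at least 1 TPM in a cell line, on a log axis, with 1 point per library and the dashed line at 1 TPM. FOXJ3, FOXK1 and FOXK2 lie close together across lines, whereas the libraries of FOXF2 and FOXQ1 spread over more than a factor of 10.

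The summed TPM of the 41 members was 721 in CHLA 02 and 716 in CHLA 05. The replicates of CHLA 04 averaged 898 ± 34.5 TPM (SD, n = 2 technical replicates), and those of CHLA 06 averaged 718 ± 102 TPM (SD, n = 2). In TPM without further scaling, the sums of CHLA 02 and CHLA 05 lay within the range of the CHLA 06 replicates, 646 to 790 TPM. Both CHLA 04 libraries were above that range, at 874 and 922.7. Which gene led the sum differed: FOXF2 held 22% of it in CHLA 02 and 45.3% and 35.4% in the CHLA 06 replicates, FOXN3 and FOXM1 led in the CHLA 04 replicates with 24.3% and 23.2%, and FOXM1 led in CHLA 05 with 18.3%.

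FOXF2 (ENSG00000137273), a factor of mesenchyme and of brain pericytes, had the highest mean over the 4 lines of all members, 121 TPM. It was at 159 TPM in the CHLA 02 library, 27.5 in that of CHLA 05, 5.08 and 5.30 in the CHLA 04 pair, and 358 and 229 in the CHLA 06 pair. CHLA 06 was the highest and CHLA 04 the lowest, with no overlap between any of the lines. The mean of CHLA 06, 293 ± 91.6 TPM (SD, n = 2 technical replicates), was 56.5-fold that of CHLA 04, and FOXF2 was called in 5 of the 6 pairs. In CHLA 06 it stood at the 98.1 and 96.9 percentile of the genes with reads, and in CHLA 04 at the 35.1 and 37.7 percentile.

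FOXQ1 (ENSG00000164379), known from epithelia and hair follicles, was at 20.2 TPM in CHLA 02, had no read in either CHLA 04 library, was at 0.804 TPM from 9 reads in CHLA 05, and was at 35.8 and 16.7 TPM in the CHLA 06 replicates. CHLA 02 lay within the range of the CHLA 06 replicates, and both were above CHLA 05 and CHLA 04. With 3 reads in each CHLA 04 library as the limit that a count of 0 allows, FOXQ1 was at least 78.7-fold higher in CHLA 06 than in CHLA 04. The CHLA 06 replicates were 1.10 apart on the log2 TPM scale, more than for any other member at 5 TPM or more in both. Against CHLA 05 it was 32.6-fold higher in CHLA 06 and 25.1-fold higher in CHLA 02. Without the first CHLA 06 replicate, it was 20.8-fold higher in CHLA 06 than in CHLA 05 and at least 50.1-fold higher than in CHLA 04.

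FOXC1 (ENSG00000054598), needed for the meninges and the anterior eye, was low and was not called, although it was with a pseudocount of 0.1 TPM, with a 2-fold minimum or without the second CHLA 04 replicate. Its values were 2.17 TPM in CHLA 02, 0.181 and 0.664 across the CHLA 04 replicates, 2.54 for CHLA 05, and 3.98 and 3.64 across the CHLA 06 replicates. No read fell on FOXCUT or LINC01394, noncoding genes in the same interval. GMDS, the next gene beyond FOXC1 on the opposite strand, was highest in CHLA 05 at 25.2 TPM and was at 7.77 and 9.14 TPM in CHLA 06, another order than that of the forkhead genes.

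The related cluster on chromosome 16 stayed near 0. FOXF1, FOXC2 and FOXL1, also mesenchymal genes, are the paralogs arranged there with 51.8 and 6.64 kb between them. None exceeded 0.433 TPM or 7 reads in any library. MTHFSD, which lies between FOXF1 and FOXC2, was at 19.9 to 37.7 TPM.

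**Figure D2:**
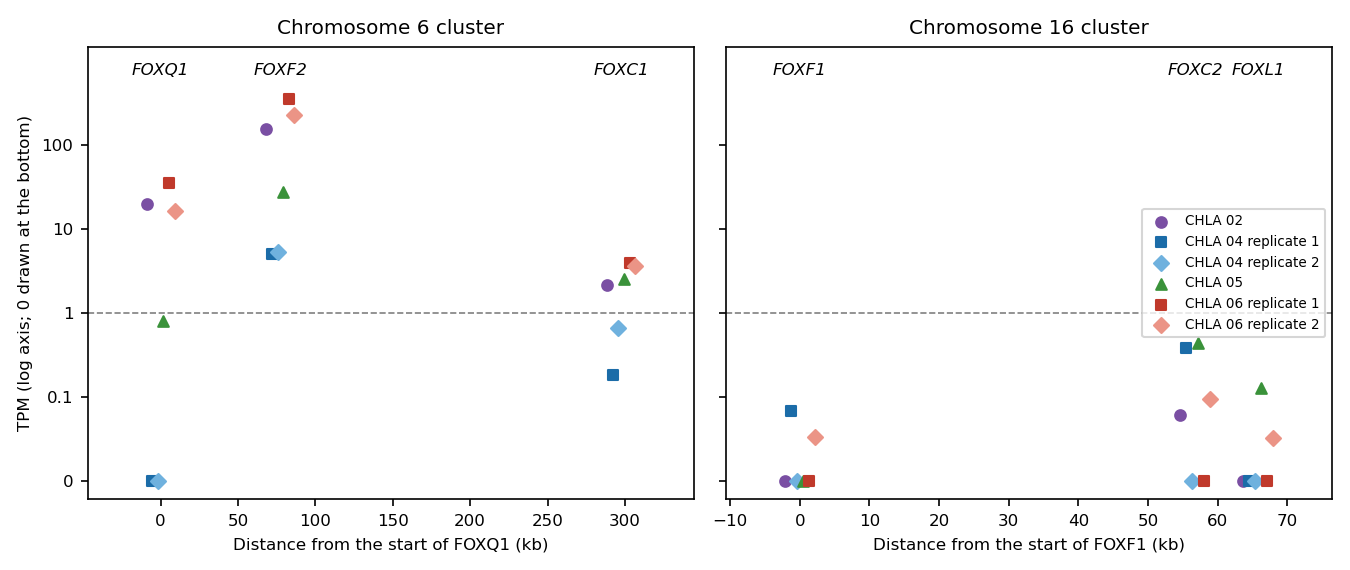
TPM on a log axis against distance in kb from the first gene of the chromosome 6 and the chromosome 16 cluster, with 1 point per library set slightly apart at each gene, and values of 0 at the bottom. FOXF2 reaches 358 TPM in a CHLA 06 library, while no gene of the chromosome 16 cluster exceeds 0.433 TPM.

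FOXN4 (ENSG00000139445), a factor of retinal and spinal progenitors, was at 3.01 TPM in CHLA 02 beside 8.40 in CHLA 05, with 13.2 and 10.7 in the replicates of CHLA 04 and 0.572 and 0.552 in those of CHLA 06. The order CHLA 04, CHLA 05, CHLA 02, CHLA 06 held for every library, although the Wilson interval of CHLA 05, 7.19 to 9.80 TPM, overlapped that of the second CHLA 04 replicate, 9.35 to 12.2 TPM. CHLA 04 was 21.3-fold and CHLA 05 15.0-fold above CHLA 06, and both pairs were called.

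FOXB1 and FOXL2 were highest in CHLA 05. FOXB1 (ENSG00000171956), a factor of the diencephalon and hypothalamus, was at 6.48 TPM there, from 125 reads, beside 0.253 in CHLA 02, 1.19 and 0.490 in CHLA 04 and no read in CHLA 06. CHLA 05 was 7.72-fold above the mean of CHLA 04 (13.2-fold without the first CHLA 04 replicate, 5.45-fold without the second). It was at least 51.9-fold above CHLA 06 with 3 reads per library as the limit. FOXB1 was called against CHLA 04 by a log2(TPM + 1) difference of 2.02, only just over the minimum. This call was lost without the second CHLA 04 replicate.

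FOXL2 (ENSG00000183770; chromosome 3, 138944224 to 138947140), the factor of ovarian granulosa cells, was at 8.14 TPM in CHLA 05, from 155 reads. It had no read in CHLA 02, was at 0.811 and 1.14 TPM in CHLA 04, and had 0 and 1 read in CHLA 06. CHLA 05 was 8.34-fold above CHLA 04 and at least 53.0-fold above CHLA 02. FOXL2NB, which starts 93 bases away on the opposite strand, followed the same order, with 103 reads (5.45 TPM) in CHLA 05, 6 and 9 in CHLA 04, none in CHLA 02, and 0 and 1 in CHLA 06.

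FOXN3 (ENSG00000053254; chromosome 14, 89124871 to 89619149), a repressor first described as a checkpoint suppressor, was among the 3 highest members. It was at 101 TPM in the CHLA 02 library, 107 in that of CHLA 05, 212 and 181 in the CHLA 04 pair, and 19.8 and 16.1 in the CHLA 06 pair. CHLA 04 was the highest, CHLA 02 and CHLA 05 were 1.05-fold apart with overlapping Wilson intervals, and CHLA 06 was lowest. CHLA 06, at 18.0 ± 2.62 TPM (SD, n = 2 technical replicates), was 10.9-fold under CHLA 04 and 5.64-fold under CHLA 02, and FOXN3 was called in CHLA 06 against each other line. FOXN2 (ENSG00000170802), its paralog, was lowest in CHLA 04 and highest in CHLA 05, without a call. It was at 31.7 TPM in CHLA 02, 15.0 and 16.7 across the CHLA 04 replicates, 42.2 for CHLA 05, and 31.7 and 33.6 across the CHLA 06 replicates.

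FOXK1, FOXK2, FOXJ2 and FOXJ3 are broadly expressed, and FOXK proteins repress autophagy genes and promote glycolysis. FOXK1 (ENSG00000164916) was at 49.5 TPM in CHLA 02 beside 71.8 in CHLA 05, with 104 and 73.2 in the replicates of CHLA 04 and 49.4 and 53.7 in those of CHLA 06. FOXK2 (ENSG00000141568) was at 63.6 TPM in the CHLA 02 library, 71.6 in that of CHLA 05, 81.1 and 84.0 in the CHLA 04 pair, and 52.7 and 51.1 in the CHLA 06 pair. The widest ratios of line means were 1.79 and 1.59, between CHLA 04 and the lowest line. FOXJ3 (ENSG00000198815) was at 58.6 TPM in CHLA 02, 50.4 and 64.8 across the CHLA 04 replicates, 49.5 for CHLA 05, and 62.9 and 65.1 across the CHLA 06 replicates, so that its line means were at most 1.29-fold apart and the CHLA 04 replicates spanned most of that range. FOXJ2 (ENSG00000065970) was at 54.4 TPM in CHLA 02 beside 56.3 in CHLA 05, with 77.3 and 97.1 in the replicates of CHLA 04 and 22.6 and 25.95 in those of CHLA 06. Its log2(TPM + 1) difference between CHLA 04 and CHLA 06 was 1.81, under the minimum of 2.

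Among the FOXP genes, FOXP2 had its highest mean in CHLA 06 and FOXP1 its lowest, while both were higher in CHLA 05 than in CHLA 04. FOXP2 (ENSG00000128573; chromosome 7, 114086327 to 114693772), known for its role in speech circuits, was at 10.7 TPM in the CHLA 02 library, 8.40 in that of CHLA 05, 1.97 and 0.962 in the CHLA 04 pair, and 45.7 and 28.4 in the CHLA 06 pair. CHLA 06 was highest and CHLA 04 lowest, and CHLA 02 and CHLA 05 lay between them with Wilson intervals that overlapped, from 9.54 TPM upward in CHLA 02 and up to 9.60 TPM in CHLA 05. CHLA 06 was 25.3-fold above CHLA 04, 38.5-fold without the first CHLA 04 replicate and 18.8-fold without the second. On the log2(TPM + 1) scale the difference was 3.95, and 2.94 with only the most abundant transcript. That transcript, ENST00000412402, is classed as nonsense-mediated decay in GENCODE and held 3.7% to 19.1% of FOXP2 TPM by cell line. Against CHLA 05, CHLA 06 was 4.41-fold higher, a log2(TPM + 1) difference of 2.02 that only just met the minimum. This call was lost without the first CHLA 06 replicate. The call of CHLA 02 over CHLA 04 was lost without the second CHLA 04 replicate. FOXP1 (ENSG00000114861), which partners FOXP2 in neurons, was at 3.78 TPM in CHLA 02, 7.85 and 5.43 across the CHLA 04 replicates, 10.9 for CHLA 05, and 2.40 and 1.56 across the CHLA 06 replicates. CHLA 05 was 5.52-fold above CHLA 06, a log2 difference of 2.00 that only just met the minimum. FOXP1 was no longer called under median ratio scaling, quantile normalization or the maximum of technical replicates. The call was also lost with a pseudocount of 2 TPM, an 8-fold minimum or without the second CHLA 06 replicate. In CHLA 05, 28.8% of FOXP1 TPM (3.15 TPM) was on ENST00000498154, a model of 535 bases and 2 exons. This model was at 0 TPM in CHLA 06, so leaving it out would lower CHLA 05 alone and bring FOXP1 under the minimum. FOXP4 (ENSG00000137166) was not called, with values from 10.6 to 18.8 TPM.

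FOXO1 (ENSG00000150907), which links insulin signaling to metabolism and survival, was at 3.02 TPM in CHLA 02 beside 17.2 in CHLA 05, with 7.30 and 11.2 in the replicates of CHLA 04 and 1.69 and 1.33 in those of CHLA 06. CHLA 05 was highest and CHLA 06 lowest, and the lines did not overlap. CHLA 05 was 11.4-fold above CHLA 06 and 5.68-fold above CHLA 02, and CHLA 04 was 6.14-fold above CHLA 06. On the log2(TPM + 1) scale CHLA 06 over CHLA 04 was -2.03, only just past the minimum. That call was lost under median ratio scaling, and also without the second CHLA 04 replicate, where the fold was 4.84. FOXO3 (ENSG00000118689) was more even, at 21.95 TPM in the CHLA 02 library, 28.4 in that of CHLA 05, 22.1 and 14.1 in the CHLA 04 pair, and 25.2 and 20.2 in the CHLA 06 pair, and its mean in CHLA 04 was 18.1 ± 5.67 TPM (SD, n = 2 technical replicates). FOXO6 reached 2.37 TPM in 1 CHLA 04 library and was between 0.539 and 1.98 TPM in the others. FOXO3B, the near-identical copy of FOXO3, was not found in the files by that symbol, so reads from it could have been counted on FOXO3.

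FOXM1 (ENSG00000111206; chromosome 12, 2857681 to 2877155) activates genes of the G2 and M phases together with MYBL2 and the MuvB complex. It was at 64.7 TPM in CHLA 02, 130 and 214 across the CHLA 04 replicates, 131 for CHLA 05, and 53.7 and 75.6 across the CHLA 06 replicates. CHLA 02 lay within the range of the CHLA 06 libraries, and both were under CHLA 04 and CHLA 05. The mean of CHLA 04, 172 ± 59.5 TPM (SD, n = 2 technical replicates), was 2.66-fold that of CHLA 06, 64.6 ± 15.5 TPM, so FOXM1 was not called at the 4-fold minimum. Its technical replicates differed more than those of any other member with 5 TPM or more in CHLA 04, by 0.72 on the log2 scale.

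The 30 listed partners and mitotic targets of FOXM1 were all detected, and none was called, beside 20.8% of detected genes. Their mean was lower in CHLA 06 than in CHLA 04 for 28 of the 30, with a median log2(TPM + 1) difference of -0.80, beside -0.22 over all detected genes. TOP2A, the topoisomerase that untangles chromosomes, was at 198 TPM in CHLA 02 beside 465 in CHLA 05, with 271 and 479 in the replicates of CHLA 04 and 143 and 214 in those of CHLA 06. CCNB1, the mitotic cyclin, was at 113 TPM in the CHLA 02 library, 264 in that of CHLA 05, 123 and 235 in the CHLA 04 pair, and 95.02 and 133 in the CHLA 06 pair. As for FOXM1, the second technical replicate was above the first: this held for 29 of 30 listed genes in CHLA 04, with a median log2 TPM ratio of 0.80, and for 30 of 30 in CHLA 06, with 0.62, beside -0.05 and 0.01 over all genes with 1 TPM or more in both. The part of this replicate difference in the comparison of lines was not tested. With a 2-fold minimum FOXM1 and 19 of the 30 were called, beside 47.7% of detected genes. Without the first CHLA 04 replicate, 1 of the 30 was called, and without the second CHLA 06 replicate 3 were called.

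FOXM1 has a 45-base exon (2865355 to 2865399) and a 114-base exon (2861299 to 2861412) that transcripts include or skip. The 114-base exon falls in the region coding for the transactivation domain, and the isoform with it is known as inactive. On the 4 full-length transcripts, those with the 45-base exon took 15.8% of reads in CHLA 02 (95% Wilson interval 13.8 to 18.1) and 8.38% in CHLA 05, with 4.13% and 4.73% in the replicates of CHLA 04 and 30.0% and 26.9% in those of CHLA 06. Those intervals did not overlap between lines. Transcripts with the 114-base exon took 7.60% in CHLA 02, 3.46% and 3.72% across the CHLA 04 replicates, 5.78% for CHLA 05, and 17.8% and 18.1% across the CHLA 06 replicates. Both shares were highest in CHLA 06 and lowest in CHLA 04, while the transcript ENST00000627656, which has neither exon, took the most TPM of FOXM1 in every line, from 47.7% to 54.9%. A second form without either exon, ENST00000361953, had 158 reads in CHLA 02 beside 665 in CHLA 05, with 373 and 1115 in the replicates of CHLA 04 and 7 and 8 in those of CHLA 06. The split of reads among transcripts that share most of their sequence was made by the mapping software and is less certain than the gene total.

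**Figure D3:**
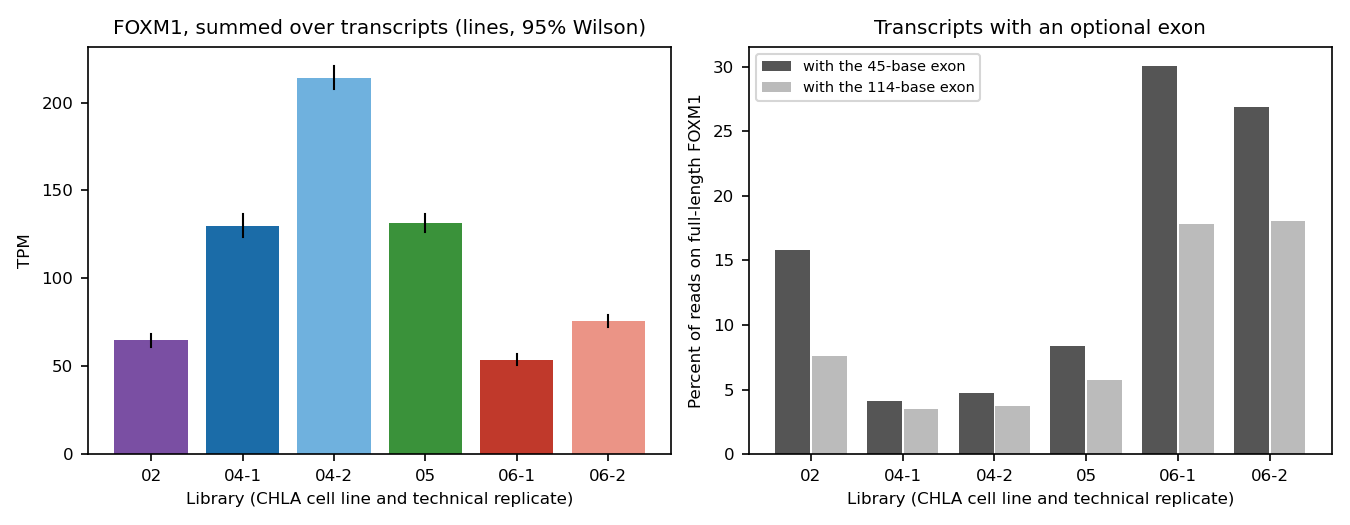
FOXM1 in each library, with bars for gene TPM and 95% Wilson counting intervals on the left, and on the right the percent of reads on full-length transcripts that have the 45-base or the 114-base exon. The 45-base exon is in 30.0% and 26.9% of reads in CHLA 06, and in 4.13% and 4.73% in CHLA 04.

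In several other members 1 transcript held most of the TPM. ENST00000162391 took 92.3% to 96.1% of FOXJ2, ENST00000328914 88.7% to 94.5% of FOXK1, ENST00000335255 76.7% to 89.0% of FOXK2 and ENST00000345097 64.1% to 76.0% of FOXN3, by cell line. FOXJ3 was split, with 35.6% to 46.0% on ENST00000372571, a model of 3 exons, and 21.7% to 32.9% on ENST00000445886, with 8 exons. FOXF2 and FOXQ1 have 1 transcript each in the files.

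The detected members not yet described were low. FOXE1, a thyroid factor, was at 2.02 to 4.69 TPM and was present in every line. FOXD1, of kidney stroma and ventral forebrain, was at 0.437 TPM in CHLA 05 and 1.43 to 4.36 TPM elsewhere. FOXJ1 reached 3.85 and 2.25 TPM in the CHLA 04 replicates, 3.08 in CHLA 05 and 1.02 in CHLA 02, and had 0 and 1 read in CHLA 06. It just missed the 4-fold minimum, and was called without the second CHLA 04 or the second CHLA 06 replicate. FOXD2 was at 1.12 to 2.05 TPM in CHLA 04 and CHLA 05, 0.352 in CHLA 02, and had 1 read in each CHLA 06 library. FOXA1, FOXA3, FOXD4 and FOXH1 did not exceed 2.64 TPM. FOXA3, a liver factor, had the order of KRT8, with 25 reads in CHLA 02, 36 and 38 in CHLA 06, 1 and 0 in CHLA 04 and none in CHLA 05. FOXD4 has near-identical copies (the FOXD4L genes), so its counts are uncertain.

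Of the 13 members under 1 TPM in every line, FOXA2, the floor plate and endoderm factor, and FOXI2 had no read in any library. A count of 0 allows FOXA2 up to 0.145 to 0.293 TPM by library. FOXB2, FOXC2, FOXD3, FOXE3, FOXF1, FOXI1, FOXI3, FOXL1, FOXN1, FOXR1 and FOXS1 had 1 to 15 reads in their highest library. FOXD3, the neural crest factor, had 5 and 8 reads in CHLA 04 and at most 1 elsewhere. FOXD3-AS1, which overlaps it by 1401 bases on the opposite strand, had 12 and 6 reads in CHLA 04 and at most 1 elsewhere, and since the strand setting of the counting is not given in the sources used here, the pair cannot be told apart with certainty.

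By pair of lines, the count of called members differed. The pairs share libraries and are not independent. CHLA 05 and CHLA 06 differed in 10 of the 28 detected members, beside 13.4% of all detected genes, among them FOXF2, FOXP2 and FOXQ1, higher in CHLA 06, and FOXB1, FOXL2, FOXN3, FOXN4, FOXO1 and FOXP1, higher in CHLA 05. CHLA 04 and CHLA 06 differed in 7, beside 14.4%, among them the same 3 genes, higher in CHLA 06, and FOXN3, FOXN4 and FOXO1, higher in CHLA 04. CHLA 02 and CHLA 04 differed in 3, beside 5.74%: FOXF2, FOXP2 and FOXQ1 were higher in CHLA 02. CHLA 02 and CHLA 06 differed in 2 members, beside 4.18%, among them FOXN3, higher in CHLA 02. CHLA 02 and CHLA 05 differed in 5, beside 8.89%, with FOXF2 and FOXQ1 higher in CHLA 02 and FOXB1, FOXL2 and FOXO1 higher in CHLA 05. CHLA 04 and CHLA 05 differed in 3, beside 6.97%, namely FOXB1, FOXF2 and FOXL2, all higher in CHLA 05. Leaving CHLA 02 out, the same 10 members were called. This could not come out otherwise, because all 10 were called between CHLA 05 and CHLA 06.

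**Figure D4:**
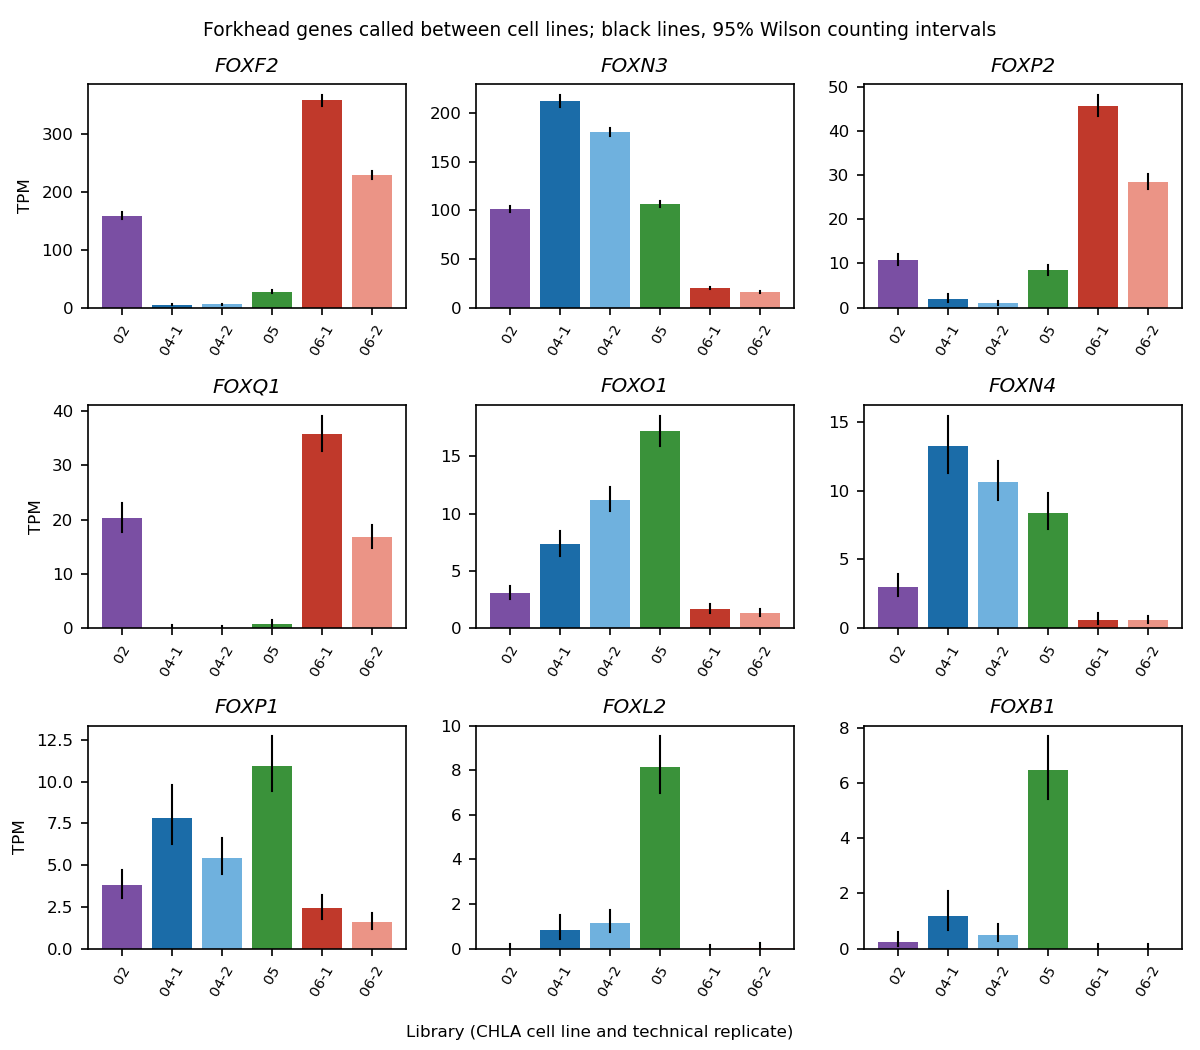
TPM of called forkhead genes in each library, with axes from 0 and 95% Wilson counting intervals as black lines. FOXF2, FOXP2 and FOXQ1 are highest in CHLA 06, FOXN3 and FOXN4 in CHLA 04, and FOXO1, FOXP1, FOXL2 and FOXB1 in CHLA 05.

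Of the 30 listed regulators and targets of FOXO proteins, 29 were detected and 11 called, beside 20.8% of detected genes. IRS2, the insulin receptor substrate, was at 32.2 TPM in the CHLA 02 library, 126 in that of CHLA 05, 104 and 63.6 in the CHLA 04 pair, and 0.0476 and 0.158 in the CHLA 06 pair. TXNIP, an inhibitor of glucose uptake, had the order of FOXO1 at its ends, with 107 TPM in CHLA 05 and no read in CHLA 06. PDK4, a kinase that restrains pyruvate oxidation, reached 21.0 TPM in CHLA 05 and 3.25 and 3.65 in the CHLA 06 replicates, and was at or under 0.544 elsewhere. SESN3, a stress-induced regulator of mTORC1, was lowest in CHLA 04, at 3.48 and 2.35 TPM, beside 27.8 to 60.4 elsewhere, so the listed genes did not share 1 order. The upstream kinases AKT1 and AKT2 were not called.

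Among 22 listed factors of the developing telencephalon, 15 were detected and 13 called, beside 20.8% of detected genes. NR2E1, a nuclear receptor of neural stem cells, was at 56.1 TPM in CHLA 02 beside 107 in CHLA 05, with 160 and 150 in the replicates of CHLA 04 and 0.0495 and 0.0448 in those of CHLA 06. BCL11A, a zinc finger factor, was likewise lowest in CHLA 06, at 0.157 and 0.178 TPM, while DLX5, of ventral forebrain interneurons, stood at 100 TPM in CHLA 05 and at or under 6.21 elsewhere. Of the 13, 4 were higher in CHLA 04 than in CHLA 06 and 3 were lower.

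Of 20 meningeal and mesenchymal genes listed with FOXC1, FOXD1 and FOXF2, 17 were detected and 14 called, beside 20.8% of detected genes. COL3A1, a fibrillar collagen, was at 841 TPM in the CHLA 02 library, 8.997 in that of CHLA 05, 2.91 and 0.231 in the CHLA 04 pair, and 1332 and 628 in the CHLA 06 pair. COL1A1 and PRRX1 were also highest in CHLA 06, at 600 and 459 TPM and at 177 and 178 TPM. ZIC1 was not: it was at 53.0 TPM in CHLA 05 and at or under 1.81 elsewhere. Against CHLA 04, 5 of the list were higher in CHLA 06 and 3 lower.

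Of 20 neural crest factors listed with FOXD3, 14 were detected and 12 called, beside 20.8% of detected genes. SOX9 was at 229 TPM and SOX5 at 112 in CHLA 05, and both were at or under 0.0657 in CHLA 06. TFAP2A was at 148 and 130 TPM in CHLA 04 and 0.0560 in CHLA 05. SOX10, which marks migrating crest cells and their glia, had a level at or under 0.0816 TPM in all libraries. ZIC1, named above, is on both lists.

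The 17 measured floor plate and ventral midline genes listed with FOXA2 had 11 detected and 8 called, beside 20.8% of detected genes, although SHH itself was at or under 0.163 TPM. NTN1, a guidance cue, was at 574 and 379 TPM in CHLA 04 and 0.369 and 0.492 in CHLA 06. GLI3, a transcription factor of the hedgehog pathway, was at 229 and 178 TPM in CHLA 04 and 0.570 and 0.646 in CHLA 06. SLIT2, a repellent for axons, ran the other way, at 30.6 and 17.6 TPM in CHLA 04 and 755 and 675 in CHLA 06. NKX6-1 had no read in CHLA 06 and was at 5.62 to 12.5 TPM elsewhere.

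Of 30 motile cilium genes linked to FOXJ1, 22 were detected and 5 called, near the share over all detected genes. RFX3, a regulator of cilia in many cell types, was at 175 and 121 TPM in CHLA 04 and 22.1 and 18.7 in CHLA 06. DNAH9, an outer arm dynein, was at 10.3 TPM in CHLA 05 and at or under 0.151 in CHLA 06. The list as a whole did not share this direction. Only 12 of the 30 had a lower mean in CHLA 06 than in CHLA 04, and the median log2(TPM + 1) difference was 0.16. Between those lines 3 were called, all higher in CHLA 04. TP73 was highest in CHLA 04, at 5.05 and 9.22 TPM, and TPPP3 in CHLA 02, at 11.03 TPM.

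Of 15 FOXP partners and neural targets, 14 were detected and 3 called, near the 20.8% of detected genes. These were CTNND2, a neuronal catenin, with 87.6 and 42.7 TPM in CHLA 04 and no read in CHLA 06, CNTNAP2, with 12.6 TPM in CHLA 05 and at or under 0.0397 in CHLA 02 and CHLA 06, and SRPX2, with 14.9 TPM in CHLA 05. The subunits of the NuRD corepressor complex that FOXP proteins recruit (GATAD2A, GATAD2B, CHD3, CHD4, HDAC1, HDAC2 and MTA1) were at 38.6 to 465 TPM and were not called. Of 17 measured neighbors and copies named after forkhead genes, 8 were detected and 3 called, beside 20.8% of detected genes, among them FOXL2NB, given above, and FOXD4L4, a FOXD4 copy, at 4.88 TPM in CHLA 05.

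Retroviral long terminal repeat (LTR) elements were counted in a separate mapping with a scale of its own. The spans of 12 members held 311 LTR elements, of which 80, in 8 members, had a read in some library. None of the 80 overlapped an exon of the gene in the files, so by this annotation they were intronic. Of 88 elements on the strand of the gene 66 had a read (75%), and of 223 on the opposite strand 14 had (6.28%). FOXN3 held 111 elements, 35 of them with reads and 32 of those on its own strand, and FOXP2 held 91, with 31 and 26.

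Reads on the elements of FOXN3 were 447 in CHLA 02, 743 and 865 across the CHLA 04 replicates, 325 for CHLA 05, and 68 and 58 across the CHLA 06 replicates. In RPM, with all LTR reads of a library scaled to the same total, they were at 960 in CHLA 02 beside 785 in CHLA 05, with 2091 and 1691 in the replicates of CHLA 04 and 152 and 121 in those of CHLA 06. As for the gene, CHLA 04 was highest and CHLA 06 lowest. Its most read element was an MLT1B at 89266114 to 89266522, minus strand like the gene, with 297 reads over the 6 libraries.

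On the elements of FOXP2 the order was turned around, with 127 reads in the CHLA 02 library, 47 in that of CHLA 05, 13 and 3 in the CHLA 04 pair, and 482 and 343 in the CHLA 06 pair. Its most read element, a THE1B-int at 114168153 to 114169708 on the plus strand of the gene, had 56 and 37 reads in CHLA 06 and 3 and 0 in CHLA 04. A MER41A in FOXO1 (chromosome 13, 40649908 to 40650465) had 20 reads in CHLA 05, 7 and 13 in the CHLA 04 replicates, 2 in CHLA 02 and none in CHLA 06, which is the order of FOXO1 itself. In FOXK2 all 5 elements with reads were on the opposite strand, and a MER21A (chromosome 17, 82637358 to 82637769) held 101 of their 114 reads at 13 to 23 per library. FOXP1, with 40 elements, had 25 reads on them in all libraries together, and the 19 in FOXB1 had none.

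**Figure D5:**
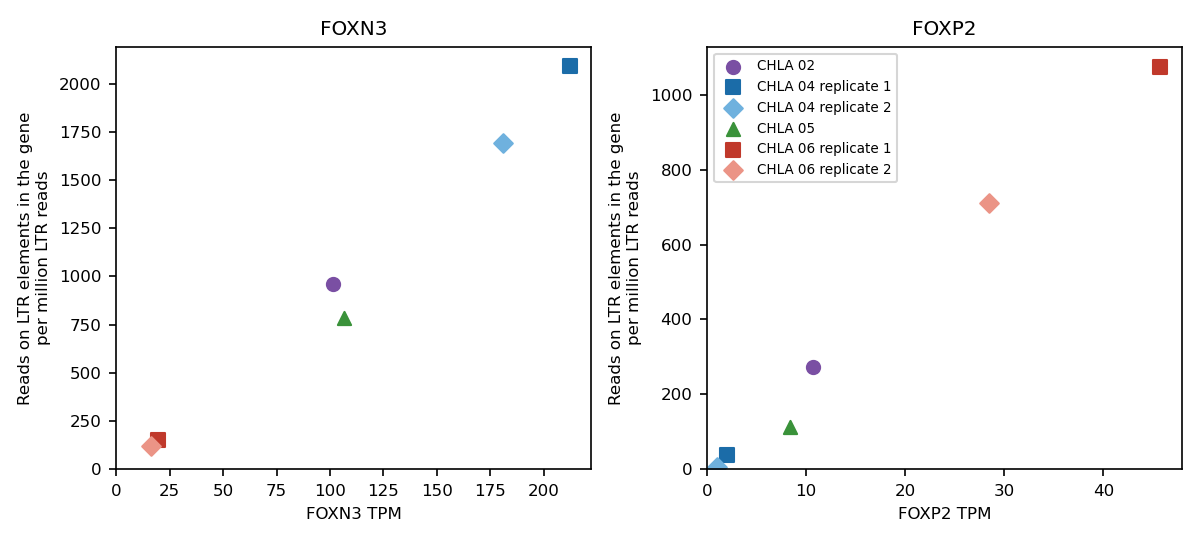
Reads on LTR elements inside FOXN3 and FOXP2 in RPM of all LTR reads, against TPM of the gene, with 1 point per library. For FOXP2 the libraries have the same order on both axes, and for FOXN3, from 121 to 2091 RPM, CHLA 02 and CHLA 05 change places.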

How the data were processed

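Total RNA libraries (TruSeq Stranded, 125 base paired-end reads) of 4 AT/RT cell lines were analysed as 6 libraries, grouped by the cell line label. Per the labels and the study's methods, the authors used Trimmomatic for trimming and the CLC Genomics Workbench RNA-Seq tool for mapping to GRCh38, and the deposited files hold TPM of 173113 transcripts with Ensembl identifiers and, from a separate mapping, TPM for 720177 RepeatMasker LTR elements. CASAVA 1.8.2 and FastQC are named in the submitters' processing notes. Whether counting used strand is not given in the sources used here.

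Whole reads were recovered from the deposited TPM, since TPM times feature length falls on multiples of a fixed step. At least 99.6% of values above 0 in each file were within 0.05 reads of a whole number, and a step was taken as 1 read or read pair. On transcripts 1 read per kilobase was worth 0.117 to 0.237 TPM. The recovery and the call rule were tested on simulated data. Count tests were not used, because each line had 1 biological sample. Gene TPM was summed over transcripts, replicates were averaged, and 95% Wilson intervals were computed from recovered reads over the reads of the library. The call rule had a pseudocount of 1 TPM, a log2 minimum of 2 and non-overlapping intervals, and its fold change is on the log2(TPM + 1) scale, which understates low genes. Other folds are ratios of mean TPM. Against lines without reads they were taken at 3 reads per library.

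Members called in a pair, the 10 highest members, FOXM1 and FOXP1 were given in every library, and up to 4 genes of each list by the largest called difference and then the level. Some items that this rule names are not reported here. FOXC1, FOXP4, FOXJ1, AKT1, AKT2, SHH, SOX10 and other genes outside this rule were named after their values were seen. The members and lists were chosen with earlier results of these data known. Of the 160 member transcripts, 149 were found in GENCODE 44 by identifier. Coordinates are those of the files. RefSeq promoters (GRCh38.p14) were matched by symbol to 30 of the 41 members. Members without an entry included FOXA2, FOXC2, FOXE3, FOXF1, FOXH1, FOXJ1, FOXL1, FOXM1, FOXN2 and FOXS1. NKX2-9, FOXD2-AS1, FOXN3-AS2 and FOXO3B of the lists were not found in the files. Alternatives changed the pseudocount, fold and detection minimums, scaling, transcript sum and replicates. Python 3.11.15, numpy 2.4.6 and pandas 2.3.3 were used.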

Additional observations from a re-analysis of the deposited data

How the results depend on the processing

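No paired analysis was possible because the replicate numbers only count technical replicates of 1 line and no test was made. Counts of detected members were within 1.5 times of those reported under 0.5 TPM, the most abundant transcript, the maximum of replicates, quantile normalization and a minimum of 10 reads, and at a minimum of 5 TPM 18 members were detected in a line. Without 1 technical replicate, 27 to 28 were detected in a line, 13 to 15 in all lines, and 10 to 12 varied. With a pseudocount of 0.1 TPM 18 members varied, and with a 2-fold minimum 20. For the pairs 02-04, 02-05, 02-06, 04-05, 04-06 and 05-06 a 2-fold minimum gave 11, 11, 6, 8, 14 and 17 calls. A pseudocount of 0.1 TPM gave 7, 4, 6, 14 and 16 for 02-04, 02-06, 04-05, 04-06 and 05-06, and 1 of 2 TPM gave 3 for 02-05 and 1 for 04-05. An 8-fold minimum gave 2, 1, 0 and 4 for 02-05, 02-06, 04-05 and 05-06. Leaving out 1 replicate gave 2 to 3 (02-04), 5 (02-05), 2 (02-06), 2 to 4 (04-05), 7 to 8 (04-06) and 9 to 10 (05-06) calls. Median ratio scaling shifted libraries by -0.10 to 0.12 on the log2 scale, down in CHLA 04 and up in CHLA 06. It set the summed TPM to 736 (CHLA 02), 838 (CHLA 04), 680 (CHLA 05) and 770 (CHLA 06). Sums by library were not computed with it, so the gap between the CHLA 04 and CHLA 06 libraries is given for unscaled TPM only. Unscaled and without 1 replicate, the sums ranged from 874 to 922.7 TPM in CHLA 04 and from 646 to 790 in CHLA 06. With at least 5 reads in a library, 53 LTR elements inside members counted as read. Settings for the gene lists and the count without CHLA 02 were chosen after seeing the data. Depth limited the low members: 13 had under 10 reads in every library.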
